A study of Mus musculus with 13 samples.

Results

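The respiratory chain and ATP synthase genes of the mouse were examined across marrow mesenchymal stromal cell (MSC) libraries from recovered, pre-leukemic and healthy mice. They were chosen by symbol: Nduf, Uqcr, Cox, Atp5 and Sdh subunit names for the nuclear genes, and the mt-Nd, mt-Co, mt-Atp and mt-Cytb names for the genes of mitochondrial DNA. A gene was kept if it reached 1 FPKM (fragments per kilobase of transcript, scaled to the size of the library) in at least 3 of the 13 libraries. Of 100 matching symbols among the 33433 genes in the deposited table, 93 were kept: 81 of 87 nuclear and 12 of 13 mitochondrial. Complexes were assigned by the start of the symbol, here and in the counts and ratios per complex below. The nuclear genes comprised 37 of complex I, 4 of complex II, 8 of complex III, 15 of complex IV and 17 of complex V. The mitochondrial genes comprised 6 of complex I, 1 of complex III, 3 of complex IV and 2 of complex V.

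The chain lies in the inner mitochondrial membrane. Complex I and complex II pass electrons to ubiquinone, complex III passes them to cytochrome c, complex IV hands them to oxygen, and complex V, the ATP synthase, uses the resulting proton gradient to make ATP. Complex II is built from nuclear genes alone, whereas the other complexes join subunits from both genomes: each nuclear gene has its own promoter, while mitochondrial DNA is transcribed into long precursors that are cut into separate mRNAs and rRNAs. Marrow stromal progenitors are known for relying largely on glycolysis and for raising oxidative phosphorylation when they differentiate.

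The series asks how MSCs act on the bone marrow of mice with leukemia. All mice were on a C57BL/6 background. The 4 recovered libraries are read here as the MSCs sorted from pre-leukemic mice that had been given MSCs, the 6 pre-leukemic libraries as MSCs of pre-leukemic mice without that treatment, and the 3 healthy libraries as MSCs of control mice. Cells were sorted from a mixture of nucleated cells of bone marrow and compact bone, and polyadenylated RNA was made into Nextera XT libraries. The sort markers, the age of the mice, the number of animals behind a library and what made the mice pre-leukemic are not stated in the labels. The p-values therefore measure the spread between these libraries, which may be technical.

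Some facts of the whole series touch every result. Counts were not used here, so depth was estimated from the smallest step between low FPKM values, at 1.57 to 2.85 M fragments in recovered, 4.01 to 5.87 M in pre-leukemic and 2.53 to 3.13 M in healthy libraries. At these depths 3 reads on a transcript of 1 kb are worth 1.05 to 1.92 FPKM in recovered, 0.511 to 0.749 in pre-leukemic and 0.96 to 1.19 in healthy libraries. Immunoglobulin genes held 0.006 to 0.134% of all FPKM in recovered, 54.9 to 80.5% in pre-leukemic and 0.019 to 0.03% in healthy libraries. Healthy 1 and healthy 3 differed far less than any other pair of one group, with a chi-square per gene of 1.198 over 435 genes (p = 0.0028), against 9.73 to 42.9 in the other 23 pairs. They were counted as 1 sample by their mean, which leaves 2 healthy samples. The label MSC was checked against markers: 10 mesenchymal stromal genes summed to 1689 to 2411 FPKM in recovered, 29.6 to 185 in pre-leukemic and 3012 to 3596 in healthy libraries. The sum of 9 pan-leukocyte genes was 42.4 to 212 FPKM in recovered, 2350.5 to 2993 in pre-leukemic and 79.3 to 93.6 in healthy libraries. That of 8 plasma cell genes was 78.0 to 164 FPKM in recovered, 46600 to 72831 in pre-leukemic and 144 to 179.5 in healthy libraries. That of 7 erythroid genes was 1651 to 2638 FPKM in recovered, 0 to 6.51 in pre-leukemic and 33.1 to 46.1 in healthy libraries. Stromal markers were thus low and leukocyte markers high in the libraries labelled pre-leukemic, and 9 of 9 pan-leukocyte genes were called higher there than in healthy samples. The part of this difference in the results below was not tested. In such bulk samples fewer cells of a type and less RNA per cell cannot be told apart.

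Each difference below is a log2 change between group means of log2(FPKM + 1), given with its standard error. Its adjusted p comes from limma fitted to all 13118 genes that passed the expression filter, in 12 samples, with Benjamini-Hochberg adjustment over all of them. A gene is called at an adjusted p under 0.05. Pseudocounts make the change of a low gene appear smaller than it is. The comparisons of recovered with pre-leukemic and of pre-leukemic with healthy samples share the pre-leukemic libraries, so their values are given side by side and not as repeats of each other.

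With the deposited FPKM the mitochondrial genes were higher in pre-leukemic samples, although on the TPM scale and after quantile normalization, given further on, several turned round. Against healthy samples, 11 of the 12 were called higher and 0 lower, with a median change of 0.79, where 14.2% of all genes were called higher and 13.1% lower and the median over all genes was 0.20. Pre-leukemic and healthy libraries did not overlap for 11 of the 12 genes, against 23.7% of all genes that were higher without overlap. Without healthy 2, the calls of mt-Nd1, mt-Nd6, mt-Co1 and mt-Co3 remained and those of the other 7 were lost (adjusted p = 0.0515 to 0.217). In recovered against pre-leukemic samples, 8 of the 12 were called lower and 1 higher, with a median change of -0.58, where 25.1% of all genes were called lower and 14.8% higher and the median over all genes was -0.41. Recovered and pre-leukemic libraries did not overlap for 6 of the 12, all lower in recovered libraries, against 16.5% of all genes. The call of mt-Nd1 was lost without recovered 2 or recovered 4 (adjusted p = 0.051 and 0.0905), and that of mt-Atp6 without any of pre-leukemic 1, 2 or 5 and recovered 1 or 2 (adjusted p = 0.0604 to 0.0852). Without the expression filter the calls of mt-Nd1 for recovered against pre-leukemic (adjusted p = 0.0691) and of mt-Co2 for pre-leukemic against healthy samples (adjusted p = 0.0602) were lost, and with arrayWeights, limma's weights for library quality, that of mt-Atp6 for recovered against pre-leukemic samples (adjusted p = 0.0542).

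The mitochondrial genes of complex IV, cytochrome c oxidase, had the highest mean FPKM over the libraries. mt-Co1 encodes the catalytic subunit with the oxygen-binding heme and copper site. mt-Co1 had 5643, 4309, 4949 and 3679 FPKM in recovered libraries, 10679.8 to 13007 (median 11926) in pre-leukemic libraries, and 5959.8, 5246 and 5953 in healthy libraries. The pre-leukemic libraries overlapped neither other group. mt-Co1 differed by -1.38 ± 0.10, adjusted p = 2.53e-07 in recovered against pre-leukemic samples and by 1.09 ± 0.13, adjusted p = 3.67e-05 in pre-leukemic against healthy samples. mt-Co3 had 5471, 5515, 6757 and 5966 FPKM in recovered libraries, 9211 to 12284 (median 9775) in pre-leukemic libraries, and 6020.0, 5866 and 6031 in healthy libraries. For mt-Co3, a core subunit without metal centres, the pre-leukemic libraries again lay above all others. Its changes were -0.78 ± 0.09, adjusted p = 1.03e-05 for recovered against pre-leukemic and 0.77 ± 0.11, adjusted p = 0.00017 for pre-leukemic against healthy. mt-Co2 takes electrons from cytochrome c. mt-Co2 had 4973, 5621, 6091 and 5277 FPKM in recovered libraries, 4856 to 7935 (median 5542) in pre-leukemic libraries, and 4232, 3819.7 and 4120.2 in healthy libraries. Recovered libraries lay within the pre-leukemic range and the gene was not called there (change -0.09 ± 0.12, adjusted p = 0.589), and pre-leukemic libraries lay above healthy ones (0.54 ± 0.15, adjusted p = 0.0168).

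The mitochondrial subunits of complex I form most of its proton-pumping membrane arm. mt-Nd1 sits where the membrane arm meets the peripheral arm. mt-Nd1 had 3752, 3473, 3975 and 2799 FPKM in recovered libraries, 4070.4 to 4985 (median 4252) in pre-leukemic libraries, and 2899, 2584 and 2798 in healthy libraries. Both other groups lay below the pre-leukemic libraries without overlap (recovered against pre-leukemic -0.33 ± 0.10, adjusted p = 0.0222; pre-leukemic against healthy 0.68 ± 0.13, adjusted p = 0.00148). mt-Nd4 had 1631, 2013, 2087 and 1642 FPKM in recovered libraries, 2531 to 3259 (median 2953) in pre-leukemic libraries, and 1999, 1363 and 2019 in healthy libraries. mt-Nd4, a pump subunit, had the same order without overlap (-0.66 ± 0.13, adjusted p = 0.00125 for recovered against pre-leukemic and 0.81 ± 0.17, adjusted p = 0.00243 for pre-leukemic against healthy). mt-Nd2 had 1234, 1347, 1279.7 and 1329.6 FPKM in recovered libraries, 1302 to 1806 (median 1632) in pre-leukemic libraries, and 1125, 839 and 1089 in healthy libraries. For mt-Nd2, another pump subunit, pre-leukemic libraries lay above healthy ones (0.71 ± 0.16, adjusted p = 0.00443) but overlapped recovered ones (-0.29 ± 0.13, adjusted p = 0.0885).

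In pre-leukemic against healthy samples, mt-Nd5 and mt-Nd6 had the largest fitted changes of the mitochondrial complex I genes. mt-Nd6 is the one protein gene on the light strand. mt-Nd6 had 207, 179, 569 and 239 FPKM in recovered libraries, 827 to 1026 (median 843) in pre-leukemic libraries, and 193, 148 and 186 in healthy libraries. Pre-leukemic libraries lay above all others. The change was -1.72 ± 0.27, adjusted p = 0.000155 in recovered against pre-leukemic and 2.39 ± 0.34, adjusted p = 0.000128 in pre-leukemic against healthy samples. mt-Nd5 had 162, 123, 424 and 160.5 FPKM in recovered libraries, 361 to 528 (median 419) in pre-leukemic libraries, and 139, 118 and 132 in healthy libraries. For mt-Nd5, a pump subunit, the library recovered 3 lay inside the pre-leukemic range while the other 3 recovered libraries lay below it, and pre-leukemic libraries lay above all healthy ones. Its changes were -1.19 ± 0.29, adjusted p = 0.00523 for recovered against pre-leukemic and 1.78 ± 0.37, adjusted p = 0.00241 for pre-leukemic against healthy. mt-Nd3, a small subunit near the quinone site, went the other way. mt-Nd3 had 624, 1358, 1715 and 1093 FPKM in recovered libraries, 331 to 860.2 (median 457) in pre-leukemic libraries, and 752, 579 and 658 in healthy libraries. It was the one mitochondrial gene called higher in recovered than in pre-leukemic samples (1.25 ± 0.30, adjusted p = 0.0042), although recovered 1 lay inside the pre-leukemic range, and that call was lost with arrayWeights (adjusted p = 0.0764). Pre-leukemic and healthy libraries overlapped as well (-0.43 ± 0.38, adjusted p = 0.419).

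mt-Cytb, the cytochrome b of complex III and its single mitochondrial subunit, followed the majority. mt-Cytb had 5181, 4367, 4169 and 3657 FPKM in recovered libraries, 5288 to 6860.3 (median 5693) in pre-leukemic libraries, and 3987, 3798 and 3978 in healthy libraries. All pre-leukemic values exceeded those of both other groups, with changes of -0.44 ± 0.10, adjusted p = 0.00374 for recovered against pre-leukemic and 0.58 ± 0.13, adjusted p = 0.00378 for pre-leukemic against healthy. In complex V, mt-Atp6 encodes the proton channel subunit a and mt-Atp8 a small membrane subunit. mt-Atp6 had 363, 379.5, 509 and 453 FPKM in recovered libraries, 482 to 811 (median 579.9) in pre-leukemic libraries, and 347, 341 and 322 in healthy libraries. Pre-leukemic libraries lay above all healthy ones (0.83 ± 0.23, adjusted p = 0.0134) and overlapped recovered ones (-0.51 ± 0.18, adjusted p = 0.0355). mt-Atp8 had 31.8, 18.3, 78.0 and 3.87 FPKM in recovered libraries, 55.4 to 109 (median 66.1) in pre-leukemic libraries, and 30.4, 0 and 0 in healthy libraries. mt-Atp8 was listed at 0 in healthy 2 and healthy 3, so its change against healthy samples, 4.19 ± 0.97, adjusted p = 0.00505, rests on values near 0, and recovered and pre-leukemic libraries overlapped (-1.72 ± 0.76, adjusted p = 0.0862).

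Several mitochondrial genes share bases, and the labels do not say whether reads were counted by strand, so the split of reads between neighbours is uncertain. The ends that overlap are shown because they join mt-Atp8, the mitochondrial gene with the largest fitted change in pre-leukemic against healthy samples, to mt-Atp6, and mt-Nd5 to mt-Nd6. They are read 5′ to 3′ from the GRCm38 genome with GENCODE coordinates, and capitals mark the shared bases. mt-Atp8 and mt-Atp6 share 43 bases on one strand, and mt-Nd5 and mt-Nd6 share 14 bases on opposite strands.
mt-Atp8, chrM:7766-7969, plus strand: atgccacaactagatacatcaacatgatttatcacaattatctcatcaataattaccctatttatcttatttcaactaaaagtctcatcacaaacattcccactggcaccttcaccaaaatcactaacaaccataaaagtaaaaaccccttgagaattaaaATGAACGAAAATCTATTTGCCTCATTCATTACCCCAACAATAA
mt-Atp6, chrM:7927-8016, plus strand: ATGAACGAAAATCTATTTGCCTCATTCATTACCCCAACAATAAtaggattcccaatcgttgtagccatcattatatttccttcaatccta
mt-Nd5, chrM:13476-13565, plus strand: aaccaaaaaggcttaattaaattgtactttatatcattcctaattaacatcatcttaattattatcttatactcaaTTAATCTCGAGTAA
mt-Nd6, chrM:13552-13641, minus strand: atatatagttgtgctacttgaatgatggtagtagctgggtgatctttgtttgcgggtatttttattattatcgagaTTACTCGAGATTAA
The whole of mt-Atp8, the first 90 bases of mt-Atp6, the last 90 of mt-Nd5 and the last 90 of mt-Nd6 are printed. mt-Nd4l, which shares 7 bases with mt-Nd4, was listed at 0 in 12 libraries and at 2.33 FPKM in recovered 2, and was not kept. Copies of mitochondrial DNA in the nuclear genome can share reads with these genes as well.

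**Figure D1:**
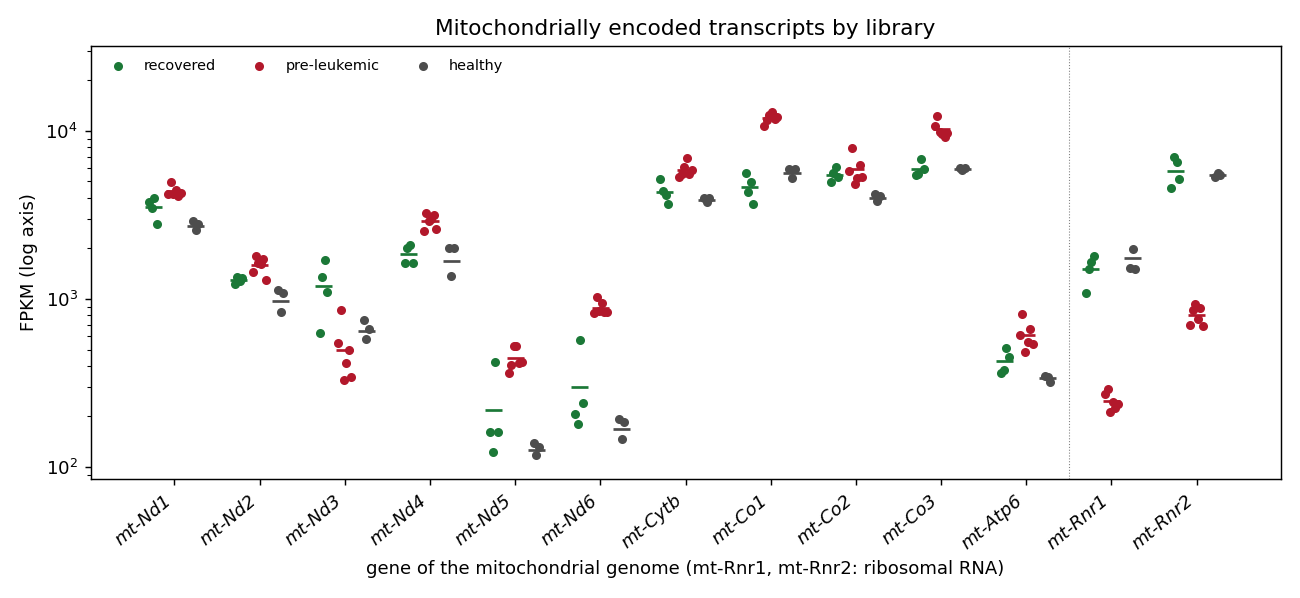
FPKM on a log axis for 11 mitochondrial respiratory chain genes and the rRNA genes mt-Rnr1 and mt-Rnr2 in each library, with recovered, pre-leukemic and healthy libraries as coloured points. With these deposited values pre-leukemic points lie above all healthy points for every chain gene shown other than mt-Nd3, and below all others for both rRNA genes; mt-Atp8, listed at 0 in 2 libraries, is left out of the log axis.

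The mitochondrial rRNA genes, which lie on the same DNA and were not among the genes chosen, moved in the opposite direction. mt-Rnr2 had 4552, 6989, 6501 and 5146 FPKM in recovered libraries, 687 to 927 (median 807) in pre-leukemic libraries, and 5337, 5606 and 5440.0 in healthy libraries. Pre-leukemic libraries lay below all others, with changes of 2.84 ± 0.14, adjusted p = 3.67e-09 for recovered against pre-leukemic and -2.79 ± 0.18, adjusted p = 1.23e-07 for pre-leukemic against healthy. mt-Rnr1 changed by 2.59 ± 0.17, adjusted p = 8.37e-08 for recovered against pre-leukemic and -2.81 ± 0.22, adjusted p = 1.05e-06 for pre-leukemic against healthy. The summed FPKM of the 12 mitochondrial mRNAs was 4.09 times that of both rRNAs in recovered, 43.4 times in pre-leukemic and 3.62 times in healthy samples on average. The libraries were made from polyadenylated RNA, so these rRNA values need not follow the amount of rRNA in the cells.

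Shares and ratios within a library do not change when all its values are multiplied by one factor, as in every scaling tried here other than quantile normalization. The summed FPKM of the mitochondrial genes was 29219 ± 2598 in recovered, 45278 ± 2838 in pre-leukemic and 26094 ± 1967 in healthy samples (SD, n = 4, 6 and 2). The summed FPKM of the nuclear genes was 18507 ± 3608 in recovered, 12321 ± 1243 in pre-leukemic and 12879 ± 388 in healthy samples (SD). The mitochondrial share of the chain's FPKM was 66.5, 61.9, 58.2 and 59.0 in recovered libraries, 75.5 to 79.8 (median 79.2) in pre-leukemic libraries, and 67.6, 66.2 and 67.7 in healthy libraries (percent). All pre-leukemic libraries lay above all other libraries in this share. Mitochondrial over nuclear FPKM averaged 1.61 ± 0.27 in recovered, 3.7 ± 0.319 in pre-leukemic and 2.02 ± 0.0919 in healthy samples (SD). The ratio was highest in pre-leukemic samples in each of the complexes with subunits from both genomes. In complex I it averaged 1.33 ± 0.257 in recovered, 2.59 ± 0.311 in pre-leukemic and 1.43 ± 0.23 in healthy samples. In complex III it averaged 2.2 ± 0.587 in recovered, 4.57 ± 0.769 in pre-leukemic and 2.56 ± 0.106 in healthy samples. In complex IV it averaged 3.66 ± 0.488 in recovered, 9.95 ± 0.658 in pre-leukemic and 4.88 ± 0.0164 in healthy samples. Single healthy libraries ran from 4.74 to 4.99. In complex V the mitochondrial genes are mt-Atp6 and mt-Atp8. There the ratio averaged 0.0878 ± 0.00274 in recovered, 0.187 ± 0.0348 in pre-leukemic and 0.0985 ± 0.000623 in healthy samples. Single libraries ran from 0.0845 to 0.0907 in recovered and from 0.089 to 0.107 in healthy mice, and overlapped. A healthy SD comes from 2 values, of which one is the mean of healthy 1 and healthy 3. In complexes IV and V it understates the spread of the healthy libraries. Among the FPKM left after the immunoglobulin genes were taken out, the mitochondrial genes held 4.12 ± 0.414 in recovered, 8.06 ± 0.509 in pre-leukemic and 4.24 ± 0.41 in healthy samples (percent, SD), and the nuclear genes 2.58 ± 0.173 in recovered, 2.19 ± 0.23 in pre-leukemic and 2.09 ± 0.108 in healthy samples (percent, SD).

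**Figure D2:**
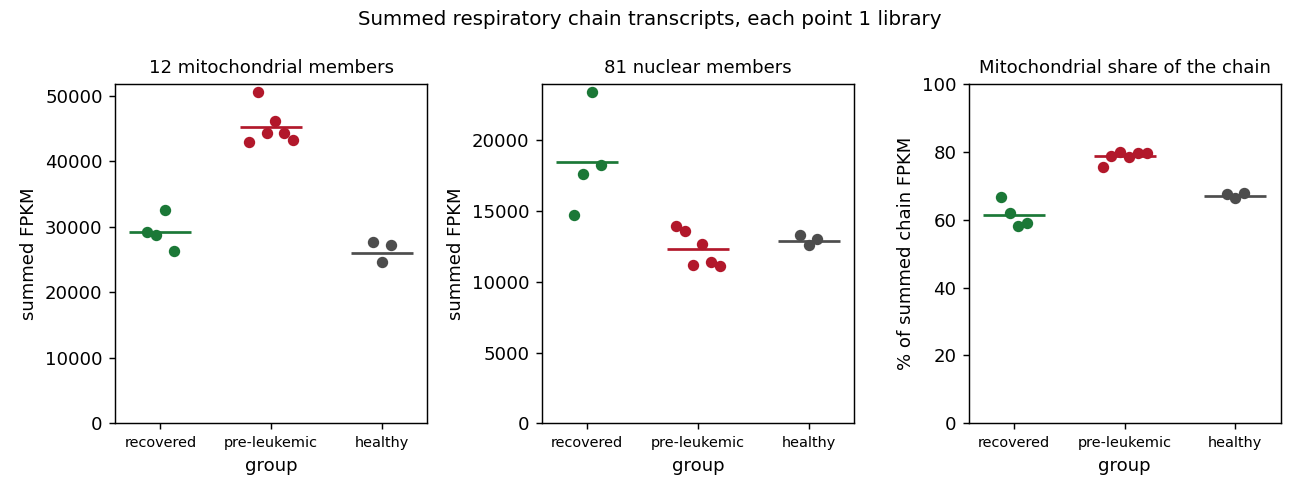
Summed FPKM of the mitochondrial genes, summed FPKM of the nuclear genes and the mitochondrial percent of the total, one point per library with the group mean as a line. Pre-leukemic libraries hold 75.5 to 79.8% of the chain's FPKM in mitochondrial genes, above the 58.2 to 66.5% of recovered and 66.2 to 67.7% of healthy libraries.

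Levels between libraries do depend on the scaling. With the deposited FPKM, the median change of nuclear genes was -0.10 and that of mitochondrial genes 0.79 in pre-leukemic against healthy samples. Median-ratio scaling, whose factors of 0.97 to 1.04 keep close to the deposited values, gave -0.14 and 0.75. Scaling by the sum without immunoglobulin genes gave 0.03 and 0.92. When mitochondrial genes were left out of that sum as well, a choice made after the values were seen, the medians were 0.09 and 0.98. Under these 4 scalings 11 of the 12 mitochondrial genes were called higher. On the TPM scale, where each library sums to the same total, the medians were -1.75 for nuclear and -0.88 for mitochondrial genes beside -1.08 for all genes, 46 nuclear and 4 mitochondrial genes were called lower, where 32% of all genes were, and 1 of each was called higher, where 6.03% were. Quantile normalization gave medians of -0.03 and -0.10, with 4 mitochondrial genes called higher and 5 lower, where 13.3% and 15.1% of all genes were. The mitochondrial median exceeded the nuclear median by 0.89 with the deposited values and by 0.86 on the TPM scale. After quantile normalization it lay 0.06 below the nuclear median (difference -0.06). A single factor per library, as on the TPM scale, moves both medians nearly alike and so could not change this difference by much.

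In recovered against pre-leukemic samples the nuclear and mitochondrial medians were 0.39 and -0.58 with the deposited values, 0.37 and -0.60 with median-ratio scaling, and 0.05 and -0.92 with the sum without immunoglobulin genes. That sum gave 20 nuclear genes higher and 15 lower and 1 mitochondrial gene higher and 11 lower, where 12.9% and 31.2% of all genes were. On the TPM scale they were 1.80 and 0.89 beside 0.58 for all genes, and 58 nuclear and 6 mitochondrial genes were called higher, where 28.7% of all genes were. After quantile normalization they were 0.07 and 0.12, with 5 mitochondrial genes called higher and 4 lower, where 17.9% and 19.4% of all genes were. The mitochondrial median minus the nuclear median was -0.97 with the deposited values, -0.91 on the TPM scale and 0.04 after quantile normalization. The direction of many mitochondrial genes thus rested on the scaling. The mitochondrial median lay below the nuclear one under each scaling other than quantile normalization. Those scalings multiply each library by a single factor, which moves both medians nearly alike. Their agreement was therefore set in advance and adds no support. Quantile normalization, which can change the difference, gave 0.04. It ranked all genes together, with the immunoglobulin genes, which held 54.9 to 80.5% of FPKM in pre-leukemic libraries. Genes that take top ranks there shift the values given to other high genes. The value of 0.04 therefore cannot decide whether the genomes differed. Calls that held under all 6 scalings in this comparison were 19 nuclear genes higher, Cox6a2 lower and mt-Nd3 higher. In pre-leukemic against healthy samples they were mt-Atp8 and Cox6a2 higher and Atp5k, Ndufa4l2 and Uqcr10 lower. The share of all genes with calls under all 6 scalings is not given here, so these counts have no background to be read against.

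**Figure D3:**
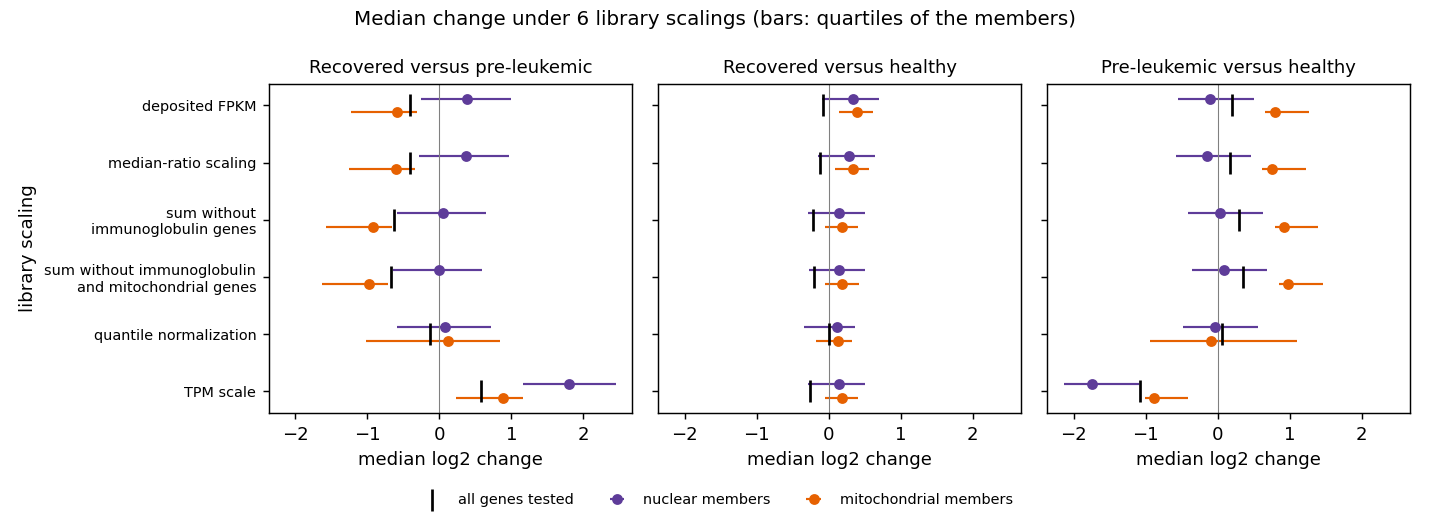
Median log2 change of nuclear genes, mitochondrial genes and all genes tested under 6 scalings, in one panel per comparison, with bars from the lower to the upper quartile. The medians of the 2 genomes lie 0.86 to 0.89 apart under 5 scalings in pre-leukemic against healthy samples. These 5 apply a single factor per library, which fixes that distance apart from the effect of the pseudocount. After quantile normalization the medians lie almost together, at -0.10 for mitochondrial and -0.03 for nuclear genes. That step ranks immunoglobulin genes with all others, so it cannot decide whether the genomes differed.

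Few nuclear genes were called between pre-leukemic and healthy samples. Of 81, 5 were called higher and 4 lower, below the 14.2% and 13.1% of all genes, and 72 were not called. Pre-leukemic and healthy libraries did not overlap for 17 that were higher and 15 that were lower, against 23.7% and 20.6% of all genes. The 5 higher genes were Ndufs3, Ndufa4, Uqcrfs1, Cox6a2 and Atp5f1, and the 4 lower ones Ndufa4l2, Uqcr10, Atp5j and Atp5k. Much rested on healthy 2, the single healthy sample apart from the mean of healthy 1 and healthy 3. Without it 1 nuclear gene was called higher and 2 lower, with Cox6a2 and Ndufa4l2 among those kept. Without recovered 3, whose spread enters the shared error, 7 nuclear genes were called lower. The shares of all genes called without healthy 2 or without recovered 3 are not given here.

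Between recovered and pre-leukemic samples 27 of the 81 nuclear genes were called higher and 13 lower, where 14.8% and 25.1% of all genes were. Recovered and pre-leukemic libraries did not overlap for 20 higher and 10 lower genes, against 10.7% and 16.5% of all genes. Calls were spread over the complexes as assigned by symbol. There were 11 higher and 5 lower in complex I, 1 and 2 in complex II, and 4 and 2 in complex III. Complex IV had 5 and 1, and complex V 6 and 3. The 11 include Ndufa4l2, whose paralog Ndufa4 is now assigned to complex IV. The 3 lower in complex V include Atp5sl, named Dmac2 in RefSeq, which was grouped by role as a related gene. On the TPM scale 58 nuclear genes were called higher and Cox6a2 was the one called lower, so the lower calls of core and accessory subunits given next were not made on that scale. The 7 nuclear core subunits of complex I carry the flavin, the iron-sulfur clusters and part of the quinone site. Of them 0 were called higher and 3 lower, Ndufs1, Ndufs3 and Ndufs8, with a median change of -0.65 beside -0.41 for all genes. Of its 28 accessory subunits, which surround the core, 10 were called higher and 2 lower, Ndufa9 and Ndufa10, with a median of 0.55. The calls of Ndufa9 and Ndufa10 were lost in several settings: that of Ndufa9 without any of pre-leukemic 1, 2, 4, 5 or 6 and recovered 3 or 4 (adjusted p = 0.0545 to 0.116), without the filter (adjusted p = 0.0596) and with arrayWeights (adjusted p = 0.0765), and that of Ndufa10 without any of pre-leukemic 1, 4, 5 or 6 and recovered 2 (adjusted p = 0.0617 to 0.0998) and with arrayWeights (adjusted p = 0.0849). Ndufs1 lost its call with arrayWeights (adjusted p = 0.0523). Among the 10 higher, Ndufb3 lost the call without any of pre-leukemic 1, 2, 3, 5 or 6, recovered 3 or 4 and healthy 2 (adjusted p = 0.0546 to 0.123), and Ndufa3 without any of pre-leukemic 3, 4, 5 or 6, recovered 2, 3 or 4 and healthy 2 (adjusted p = 0.0547 to 0.126). Both also lost it with quantile normalization, both sums without immunoglobulin genes, arrayWeights, no filter and only the groups compared (adjusted p = 0.0545 to 0.124 for Ndufb3 and 0.0546 to 0.282 for Ndufa3). Of the 3 large nuclear subunits of complex III, 0 were called higher and 2 lower, and of its 5 small subunits 4 were called higher and 0 lower. Elsewhere calls went both ways within a role: 1 higher and 2 lower in complex II, 1 and 1 among the tissue-restricted isoforms of complex IV, 1 and 1 in the catalytic head and central stalk of complex V, and 2 and 1 in its peripheral stalk. The grouping by role was made with the values known, and a relation of role and direction was not tested.

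**Figure D4:**
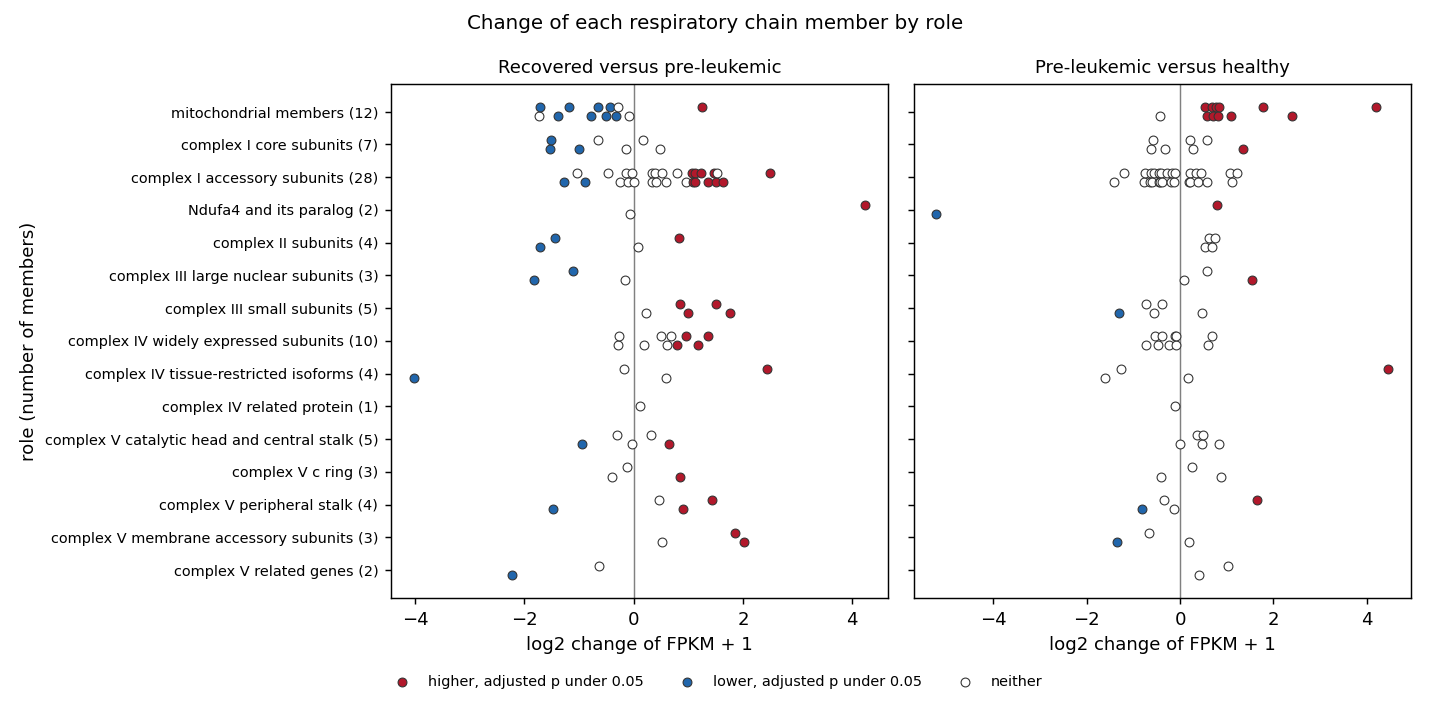
Log2 change of each nuclear gene, by the role of its subunit, with the mitochondrial genes in a row of their own. Recovered against pre-leukemic samples are on the left and pre-leukemic against healthy samples on the right, with called genes filled. On the left the complex I core subunits have a median of -0.65 and the accessory subunits one of 0.55, beside -0.41 for all genes.

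Among complex I accessory subunits, Ndufa2 had the smallest p of those called. Ndufa2 had 363, 725, 780.2 and 569 FPKM in recovered libraries, 166 to 282 (median 193) in pre-leukemic libraries, and 282, 272 and 285 in healthy libraries. Recovered libraries lay above all others (change against pre-leukemic 1.47 ± 0.25, adjusted p = 0.000298). Ndufa13 had 159, 155, 308 and 277 FPKM in recovered libraries, 79.0 to 103 (median 92.7) in pre-leukemic libraries, and 128, 129.5 and 109 in healthy libraries. Ndufa13, also known as GRIM-19, was higher in every recovered library than in any pre-leukemic one (1.23 ± 0.25, adjusted p = 0.00143). Ndufa7 had 372, 674, 958 and 427 FPKM in recovered libraries, 207 to 323 (median 263) in pre-leukemic libraries, and 377, 413 and 377 in healthy libraries. Ndufa7 and Ndufa1 were the nuclear complex I genes with the highest mean of the 3 group means in FPKM. Ndufa7 did not overlap between recovered and pre-leukemic libraries either (1.13 ± 0.25, adjusted p = 0.00242). Ndufa1, an accessory membrane-arm subunit encoded on the X chromosome, ranged over 319 to 589.9 FPKM in recovered, 359 to 608 in pre-leukemic and 328 to 376 in healthy libraries, which overlapped (-0.26 ± 0.22, adjusted p = 0.356 for recovered against pre-leukemic). Ndufs3 is a core subunit of the peripheral arm. Ndufs3 had 38.5, 121, 45.1 and 38.9 FPKM in recovered libraries, 89.2 to 135 (median 112) in pre-leukemic libraries, and 42.9, 42.8 and 39.6 in healthy libraries. The library recovered 2 lay inside the pre-leukemic range and the other 3 recovered libraries below it, with a change of -1.01 ± 0.33, adjusted p = 0.0245 against pre-leukemic samples. All healthy libraries lay below the pre-leukemic ones (1.35 ± 0.41, adjusted p = 0.0254). The recovered call was lost without recovered 1 (adjusted p = 0.0669) or recovered 4 (adjusted p = 0.0681), and the call against healthy samples without healthy 2 (adjusted p = 0.137).

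Complex II, succinate dehydrogenase, has no mitochondrial gene and split by subunit. Sdha binds the flavin and Sdhb the iron-sulfur clusters, while Sdhc and Sdhd anchor the enzyme in the membrane. Sdha had 57.2, 5.53, 55.2 and 30.1 FPKM in recovered libraries, 77.2 to 107 (median 95.7) in pre-leukemic libraries, and 62.1, 69.8 and 55.3 in healthy libraries. Every recovered library lay below every pre-leukemic one, widely spread among themselves (-1.71 ± 0.50, adjusted p = 0.0145). Sdhb had 146, 17.6, 27.6 and 57.0 FPKM in recovered libraries, 107 to 159 (median 121) in pre-leukemic libraries, and 94.8, 73.9 and 83.7 in healthy libraries. Recovered 1 lay inside the pre-leukemic range and the other 3 below it (-1.45 ± 0.45, adjusted p = 0.0195), and the call was lost without recovered 2 (adjusted p = 0.0653) or recovered 3 (adjusted p = 0.0559). Sdhd had 137, 109, 189 and 131 FPKM in recovered libraries, 62.0 to 94.3 (median 81.3) in pre-leukemic libraries, and 56.6, 41.6 and 54.0 in healthy libraries. Sdhd was highest in recovered libraries, without overlap with either group (0.83 ± 0.25, adjusted p = 0.017 against pre-leukemic samples). That call of Sdhd was lost after quantile normalization (adjusted p = 0.161) and with the sums without immunoglobulin genes (adjusted p = 0.113 and 0.152). None of the 4 was called between pre-leukemic and healthy samples, where their changes lay between 0.53 and 0.76. The 4 genes made up 1.65 ± 0.625 in recovered, 2.82 ± 0.171 in pre-leukemic and 1.75 ± 0.219 in healthy samples (percent of the nuclear sum, SD).

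In complex III, Uqcrc1 is a core protein and Uqcrfs1 the Rieske iron-sulfur protein. Uqcrc1 had 82.5, 24.7, 16.3 and 36.4 FPKM in recovered libraries, 84.1 to 184 (median 118) in pre-leukemic libraries, and 69.1, 97.4 and 67.0 in healthy libraries. Recovered libraries lay below pre-leukemic ones (-1.83 ± 0.40, adjusted p = 0.00238). Uqcrfs1 had 108, 104, 65.4 and 31.7 FPKM in recovered libraries, 133 to 169 (median 149) in pre-leukemic libraries, and 87.2, 31.4 and 81.7 in healthy libraries. Pre-leukemic libraries lay above both other groups (-1.11 ± 0.36, adjusted p = 0.0243 for recovered against pre-leukemic; 1.54 ± 0.46, adjusted p = 0.0217 for pre-leukemic against healthy), but these calls were lost without recovered 4 (adjusted p = 0.0788) and without healthy 2 (adjusted p = 0.375). The small subunits Uqcrb, Uqcrh, Uqcr10 and Uqcr11 ran the other way. Uqcr10 had 135, 248, 307 and 245 FPKM in recovered libraries, 43.7 to 82.1 (median 68.0) in pre-leukemic libraries, and 150.3, 181 and 137 in healthy libraries. Pre-leukemic libraries lay below both other groups, with changes of 1.77 ± 0.28, adjusted p = 0.000179 for recovered against pre-leukemic and -1.30 ± 0.35, adjusted p = 0.0134 for pre-leukemic against healthy. The call against healthy samples was lost without healthy 2 (adjusted p = 0.146). Uqcrb had 225, 344, 210.0 and 283 FPKM in recovered libraries, 52.8 to 161 (median 85.9) in pre-leukemic libraries, and 144, 129 and 137 in healthy libraries. Uqcrb, which helps hold the complex together, was higher in every recovered library than in all others (1.51 ± 0.29, adjusted p = 0.000972). Uqcrh, the hinge protein that helps cytochrome c1 bind cytochrome c, and Uqcr11 changed by 0.86 ± 0.22, adjusted p = 0.00658 and 0.99 ± 0.24, adjusted p = 0.00416 in recovered against pre-leukemic samples. With the sums without immunoglobulin genes the call of Uqcrh was lost (adjusted p = 0.0509 and 0.078), and with quantile normalization (adjusted p = 0.0841) and arrayWeights (adjusted p = 0.0692) that of Uqcr11.

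In complex IV, 4 of the 10 widely expressed nuclear subunits were called higher in recovered than in pre-leukemic samples, Cox4i1, Cox6a1, Cox6c and Cox7c, and 0 lower. Cox4i1 had 878, 751, 1267 and 787 FPKM in recovered libraries, 388 to 529.8 (median 486) in pre-leukemic libraries, and 704, 686 and 644 in healthy libraries. Cox4i1, the main isoform of a regulatory subunit that binds ATP, lay highest in recovered, lower in healthy and lowest in pre-leukemic libraries without overlap (0.95 ± 0.17, adjusted p = 0.000616 for recovered against pre-leukemic). Cox6a1 had 699, 756, 852 and 691 FPKM in recovered libraries, 370.5 to 469 (median 453) in pre-leukemic libraries, and 408, 526.1 and 395 in healthy libraries. Recovered libraries lay above all others for Cox6a1 (0.80 ± 0.16, adjusted p = 0.000953). Cox8a, of the nuclear complex IV genes one of the 2 with the highest mean of the group means in FPKM, ranged over 423 to 639.9 FPKM in recovered, 452 to 580.3 in pre-leukemic and 511 to 675 in healthy libraries, which overlapped (0.18 ± 0.17, adjusted p = 0.404 for recovered against pre-leukemic).

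In complex V, Atp5f1 and Atp5h, subunits b and d of the peripheral stalk that holds the catalytic head in place, moved apart. Atp5h had 496, 752, 1143 and 838 FPKM in recovered libraries, 242 to 347 (median 285) in pre-leukemic libraries, and 342, 262 and 394 in healthy libraries. Recovered libraries lay above all others (1.44 ± 0.23, adjusted p = 0.000191 against pre-leukemic). Atp5f1 had 154, 98.8, 37.6 and 162 FPKM in recovered libraries, 215 to 366 (median 279) in pre-leukemic libraries, and 119, 62.2 and 124 in healthy libraries. Recovered and healthy libraries lay below all pre-leukemic ones (-1.48 ± 0.37, adjusted p = 0.00555 for recovered against pre-leukemic; 1.66 ± 0.47, adjusted p = 0.0164 for pre-leukemic against healthy, lost without healthy 2 at adjusted p = 0.265). Atp5j, coupling factor 6 of the same stalk, was lower in pre-leukemic than in healthy samples (-0.81 ± 0.23, adjusted p = 0.0169, lost without healthy 2 at adjusted p = 0.215). The membrane subunits Atp5k and Atp5l, subunits e and g, help ATP synthase dimers form. Atp5l had 283, 518, 722 and 496 FPKM in recovered libraries, 89.0 to 174 (median 115) in pre-leukemic libraries, and 161, 194 and 198 in healthy libraries. Recovered libraries lay above all others (2.02 ± 0.28, adjusted p = 5.38e-05). Atp5k had 102, 178, 258 and 173 FPKM in recovered libraries, 29.4 to 63.3 (median 46.5) in pre-leukemic libraries, and 107, 127 and 111 in healthy libraries. Pre-leukemic libraries lay below all others (1.86 ± 0.31, adjusted p = 0.000247 for recovered against pre-leukemic; -1.35 ± 0.39, adjusted p = 0.0178 for pre-leukemic against healthy, lost without healthy 2 at adjusted p = 0.149). Atp5b, the catalytic beta subunit, ranged over 762 to 1200.3 FPKM in recovered, 635 to 896 in pre-leukemic and 766 to 817 in healthy libraries, and these overlapped (0.32 ± 0.16, adjusted p = 0.123 for recovered against pre-leukemic). Many of these small-subunit genes have near-identical processed pseudogenes, between which reads may have been split.

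The direction of nuclear genes also went with annotated transcript length. This is a single annotated value per gene, which may differ from the length of the transcripts expressed here. It was 533 bases for Uqcrc1 and 651 for Ndufs1, both among the short genes called lower. For Ndufb2 it was 2413 and for Atp5g1 2675.5, so the groups below follow the annotation. Of 50 nuclear genes with transcripts under 800 bases, 22 were called higher and 3 lower in recovered than in pre-leukemic samples, with a median of 0.67, and of 30 longer ones 5 were called higher and 9 lower, with a median of -0.15. Among all genes tested, 14.74% of those under 800 bases were called higher and 23.57% lower, against 14.98% and 25.44% of longer ones. Spearman's rho between length and change was -0.40 across the 80 nuclear genes with a length and 0.035 across all genes, as a description, since genes share libraries. The length limit was chosen after the values were seen. The parts of role and length in this were not tested.

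The promoters of nuclear chain genes are known for sites of NRF1, a factor that drives many genes of respiration, and of ETS factors such as GABP. Of the 81 nuclear genes, all matched RefSeq and 67 had a promoter sequence, the 250 bases before the start. The letters searched for NRF1 on both strands, GCGCA, any base and then GCGC, were found in 13 of these 67 (19.4%), against 4.23% of 27025 genes. The letters CCGGAAG, searched for ETS factors on both strands (CTTCCGG on the other), were found in 12 (17.9%), against 7.83% of genes. The 2 motifs did not overlap in any of them. In recovered against pre-leukemic samples 7 of the 13 genes with the NRF1 letters were called higher and 1 lower, and 7 of the 12 with the ETS letters higher and 1 lower, while of all 67 genes 21 were higher and 11 lower. A match is a description and does not show that a factor binds. Of the promoters below (RefSeq, GRCm38.p6, 5′ to 3′), those of Atp5h, Atp5k, Cox6a1 and Ndufs5 belong to genes called higher under all 6 scalings and that of Sdha to a gene called lower with the deposited values. Capitals mark both motifs.
Atp5h, chr11:115419920-115420169, minus strand: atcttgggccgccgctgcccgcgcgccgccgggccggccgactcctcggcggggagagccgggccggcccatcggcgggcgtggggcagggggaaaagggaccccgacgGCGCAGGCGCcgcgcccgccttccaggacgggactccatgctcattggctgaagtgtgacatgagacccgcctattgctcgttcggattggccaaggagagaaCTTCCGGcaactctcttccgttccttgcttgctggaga
Atp5k, chr5:108434400-108434649, minus strand: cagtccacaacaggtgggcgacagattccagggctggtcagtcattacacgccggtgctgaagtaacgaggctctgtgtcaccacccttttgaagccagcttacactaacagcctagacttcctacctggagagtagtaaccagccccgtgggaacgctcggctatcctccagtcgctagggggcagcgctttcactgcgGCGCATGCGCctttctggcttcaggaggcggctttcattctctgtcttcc
Cox6a1, chr5:115348959-115349208, minus strand: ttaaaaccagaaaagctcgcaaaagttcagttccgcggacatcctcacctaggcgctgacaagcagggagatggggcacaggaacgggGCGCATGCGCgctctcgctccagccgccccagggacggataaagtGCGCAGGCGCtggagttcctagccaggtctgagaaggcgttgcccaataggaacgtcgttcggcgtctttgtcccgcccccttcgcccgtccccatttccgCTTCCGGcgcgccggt
Ndufs5, chr4:123718187-123718436, minus strand: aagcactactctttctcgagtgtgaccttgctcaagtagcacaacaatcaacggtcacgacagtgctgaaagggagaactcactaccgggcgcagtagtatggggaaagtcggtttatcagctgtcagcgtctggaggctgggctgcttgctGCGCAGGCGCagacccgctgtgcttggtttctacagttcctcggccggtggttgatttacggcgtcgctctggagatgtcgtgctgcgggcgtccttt
Sdha, chr13:74350241-74350490, minus strand: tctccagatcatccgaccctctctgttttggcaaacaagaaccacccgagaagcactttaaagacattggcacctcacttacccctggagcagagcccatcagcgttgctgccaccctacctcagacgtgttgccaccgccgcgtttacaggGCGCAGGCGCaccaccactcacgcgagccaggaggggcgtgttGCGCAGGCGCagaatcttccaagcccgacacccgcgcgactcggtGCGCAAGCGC
Atp5h and Cox6a1 carry both motifs, Atp5k and Ndufs5 1 NRF1 match each, and Sdha 3 NRF1 matches, so the same letters stood in front of genes that went opposite ways.

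Several subunits exist as isoforms, of which some are restricted to certain tissues or to low oxygen. Cox6a2 (GRCm38 chr7:128205435-128206387) is the form of Cox6a typical of heart and skeletal muscle. Cox6a2 had 0, 0, 2.24 and 0 FPKM in recovered libraries, 9.25 to 55.5 (median 16.8) in pre-leukemic libraries, and 0, 0 and 0 in healthy libraries. It was listed at 0 in all healthy libraries and in 3 of 4 recovered ones, and detected in every pre-leukemic library. It was called lower in recovered than in pre-leukemic samples (-4.03 ± 0.58, adjusted p = 8.53e-05) and higher in pre-leukemic than in healthy samples (adjusted p = 0.00046), both without overlap. The 7 libraries in which Cox6a2 reached 1 FPKM were all the pre-leukemic ones and recovered 3. It thus passed the expression filter through the group where it was high, and its calls are given as a description. The share of Cox6a2 in Cox6a2 plus Cox6a1 was 0, 0, 0.262 and 0% in recovered libraries, 1.96 to 12.97% in pre-leukemic libraries, and 0, 0 and 0% in healthy libraries. Of 6 muscle marker genes, which were checked beside it, 4 were listed at 0 in all recovered, 2 in all pre-leukemic and 5 in all healthy libraries. Their sum ranged over 2.05 to 34.6 FPKM in recovered, 0.522 to 16.5 in pre-leukemic and 0 to 11.6 in healthy libraries, and none of the 3 tested was called between pre-leukemic and healthy samples.

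Ndufa4l2 (GRCm38 chr10:127514967-127517154) is the paralog of Ndufa4 that is induced at low oxygen, and Ndufa4 itself is now assigned to complex IV. Ndufa4l2 had 43.1, 39.5, 23.7 and 44.0 FPKM in recovered libraries, 0.286 to 2.03 (median 0.903) in pre-leukemic libraries, and 108, 53.6 and 91.1 in healthy libraries. The groups did not overlap, with healthy highest and pre-leukemic lowest. Its changes were 4.24 ± 0.41, adjusted p = 2.23e-06 for recovered against pre-leukemic and -5.22 ± 0.52, adjusted p = 6.98e-06 for pre-leukemic against healthy, a call kept without healthy 2. Ndufa4 had 344, 577, 505 and 414 FPKM in recovered libraries, 340.3 to 584 (median 479.7) in pre-leukemic libraries, and 296, 249.9 and 289 in healthy libraries. Ndufa4 was higher in pre-leukemic than in healthy samples (0.80 ± 0.25, adjusted p = 0.0309), a call lost without any of pre-leukemic 2, 4 or 6 (adjusted p = 0.0522, 0.0531 and 0.054) or healthy 2 (adjusted p = 0.234), and did not differ past the threshold between recovered and pre-leukemic samples (-0.06 ± 0.20, adjusted p = 0.84). The share of Ndufa4l2 in the summed FPKM of the pair was 11.1, 6.41, 4.47 and 9.6% in recovered libraries, 0.0838 to 0.436% in pre-leukemic libraries, and 26.7, 17.7 and 23.9% in healthy libraries. The summed stromal markers given above had the same order of groups, and their part in this was not tested.

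The other tissue-restricted isoforms of complex IV were at 0 to 16.2 FPKM. Cox4i2, the lung and low-oxygen form of Cox4, was listed at 0 in 3 recovered libraries and had 0.544 FPKM in recovered 4, 0 to 1.02 in pre-leukemic libraries, and 4.6, 0.616 and 4.52 in healthy libraries, and was not called (-1.26 ± 0.47, adjusted p = 0.0644 for pre-leukemic against healthy). Cox7a1, the muscle form of Cox7a, was detected in 2 recovered libraries, at 2.45 and 1.38 FPKM, in pre-leukemic 2 at 1.02 FPKM, and in no healthy library. Cox6b2 had 8.12, 16.2, 11.2 and 1.54 FPKM in recovered libraries, 0 to 2.04 (median 0.227) in pre-leukemic libraries, and 3.69, 3.55 and 4.06 in healthy libraries. Cox6b2, a form first known from testis, was higher in recovered than in pre-leukemic samples (2.44 ± 0.57, adjusted p = 0.00357), with some overlap. The widely expressed partners Cox7a2 and Cox6b1 had log2 changes of 0.68 ± 0.31, adjusted p = 0.0942 and 0.62 ± 0.30, adjusted p = 0.115 in that comparison and were not called. Cox8b, Cox8c and Cox7b2 were listed at 0 in all libraries. The 3 genes of the c ring of complex V, Atp5g1, Atp5g2 and Atp5g3, encode the same mature protein. Of their summed FPKM, Atp5g2 averaged 46.5% in recovered, 29.7% in pre-leukemic and 42.2% in healthy samples. Atp5g2 was called higher in recovered than in pre-leukemic samples (0.86 ± 0.21, adjusted p = 0.00565), without overlap but lost after quantile normalization (adjusted p = 0.158) and with the sums without immunoglobulin genes (adjusted p = 0.0694 and 0.0982), while Atp5g1 (-0.40 ± 0.27, adjusted p = 0.246) and Atp5g3 (-0.12 ± 0.27, adjusted p = 0.746) were not called.

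**Figure D5:**
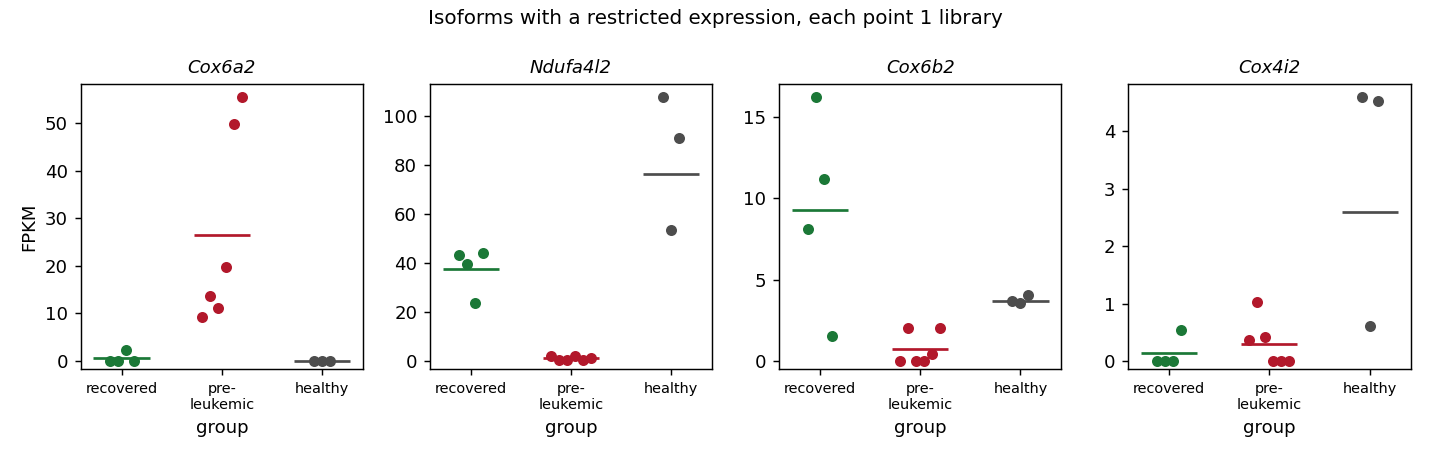
FPKM of Cox6a2, Ndufa4l2, Cox6b2 and Cox4i2 in each library, with recovered, pre-leukemic and healthy libraries as separate columns of points. Cox6a2 reaches 9.25 to 55.5 FPKM in pre-leukemic libraries and 0 to 2.24 FPKM elsewhere, and Ndufa4l2 is at most 2.03 FPKM in pre-leukemic libraries.

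Between recovered and healthy samples 2 of the 81 nuclear genes were called higher and 0 lower, where 0.518% of all genes were called higher and 1.99% lower. The 2 were Sdhd (1.51 ± 0.33, adjusted p = 0.0288), from the values above without overlap, and Atp5h (1.31 ± 0.31, adjusted p = 0.0368), also without overlap. The call of Sdhd was lost without healthy 2 (adjusted p = 0.264), and that of Atp5h without that library (adjusted p = 0.416) or any of pre-leukemic 1, 2, 5 or 6 and recovered 2 or 4 (adjusted p = 0.0508 to 0.0591). Without recovered 1, 7 nuclear genes were called higher and 1 lower, and the share of all genes called in that fit is not given here. The values that follow are again from all samples. The nuclear median change was 0.34 beside -0.08 for all genes, 17 nuclear genes (21%) passed an unadjusted p of 0.05, against 16.5% of all genes, and the libraries did not overlap for 16 higher and 4 lower genes, against 6.64% and 10.7% of all genes. Under quantile normalization 0.48% of all genes were called higher and 1.26% lower, on the TPM scale 0.366% and 3.06%, with sums without immunoglobulin genes 0.335% and 2.18%, without mitochondrial genes as well 0.335% and 2.16%, and with median-ratio scaling 0.465% and 2.1%. Of the 12 mitochondrial genes 0 were called by limma under each of the 6 scalings, and of the nuclear genes 2 were called higher under 4 of them and 0 on the TPM scale and after quantile normalization. With the deposited values 4 mitochondrial genes (33.3%) passed an unadjusted p of 0.05, against 16.5% of all genes, and the median change was 0.39. Recovered libraries lay above healthy ones without overlap for mt-Nd2, mt-Co2 and mt-Atp6, with changes of 0.43 ± 0.17, adjusted p = 0.226, 0.45 ± 0.16, adjusted p = 0.171 and 0.32 ± 0.24, adjusted p = 0.565. With 2 healthy samples, a p that misses the threshold does not show that levels were alike. The sum of erythroid markers was higher in recovered than in healthy libraries, as given above, and 4 of 4 erythroid genes tested were called higher.

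Genes that build, transcribe and feed the chain were taken from lists drawn up with results of these data known. Their shares called are read against all genes, of which 14.8% were called higher and 25.1% lower in recovered against pre-leukemic, 14.2% and 13.1% in pre-leukemic against healthy, and 0.518% and 1.99% in recovered against healthy samples. Of 41 assembly factors tested, 3 were called higher (7.32%, below the 14.8% of all genes) and 12 lower (29.3%, near the 25.1% of all genes) in recovered than in pre-leukemic samples, with a median change of -1.11 beside -0.41 for all genes. Among them Uqcc2, an assembly factor of complex III, was higher (2.49 ± 0.27, adjusted p = 5.9e-06), and Atpaf1 (-3.46 ± 0.47, adjusted p = 5.29e-05), which helps assemble the ATP synthase head, and Acad9 (-3.26 ± 0.51, adjusted p = 0.000171), an assembly factor of complex I, were lower. Of 25 genes of mitochondrial transcription and RNA handling, 5 were called higher (20%, against 14.2% of all genes) and 0 lower in pre-leukemic than in healthy samples, and 2 higher (8%) and 8 lower (32%) in recovered than in pre-leukemic samples, against 14.8% and 25.1% of all genes. Polrmt, the mitochondrial RNA polymerase, averaged 5.55 ± 5.63 FPKM in recovered, 29.7 ± 18.5 in pre-leukemic and 0.508 ± 0.718 in healthy samples (SD) and changed by -2.60 ± 0.67, adjusted p = 0.00702 for recovered against pre-leukemic and 4.24 ± 0.85, adjusted p = 0.00188 for pre-leukemic against healthy. Tfam, which packs mitochondrial DNA and starts its transcription, averaged 2.24 ± 1.59 FPKM in recovered, 23.5 ± 10.6 in pre-leukemic and 8.99 ± 11.1 in healthy samples (SD) and changed by -2.89 ± 0.61, adjusted p = 0.00184 for recovered against pre-leukemic.

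Of 79 mitochondrial ribosomal proteins, 3 were called higher (3.8%) and 8 lower (10.1%) in recovered than in pre-leukemic samples, both below the 14.8% and 25.1% of all genes. Between pre-leukemic and healthy samples 4 were called higher (5.06%, against 14.2% of all genes) and 0 lower, and between recovered and healthy samples 2 higher (2.53%, against 0.518%) and 0 lower. Mrpl43 was one of those higher in both comparisons with healthy samples (3.05 ± 0.54, adjusted p = 0.00916 for recovered; 3.75 ± 0.51, adjusted p = 9.89e-05 for pre-leukemic). Of 12 regulators of mitochondrial biogenesis, 3 were called higher (25%) and 4 lower (33.3%) in recovered than in pre-leukemic samples, against 14.8% and 25.1% of all genes, among them Myc, higher (1.94 ± 0.42, adjusted p = 0.00236), and Gabpa, a subunit of the ETS-type factor GABP, lower (-2.06 ± 0.51, adjusted p = 0.0056). Of 14 genes of the tricarboxylic acid cycle, 0 were called higher and 4 lower (28.6%, near the 25.1% of all genes) in recovered than in pre-leukemic samples, among them Idh3a (-3.14 ± 0.47, adjusted p = 0.000123), Idh3g (-2.86 ± 0.35, adjusted p = 1.83e-05) and Idh2 (-2.10 ± 0.62, adjusted p = 0.0151), subunits or forms of isocitrate dehydrogenase. Of 26 carriers and related genes, 5 were called higher (19.2%) and 8 lower (30.8%) in recovered than in pre-leukemic samples, against 14.8% and 25.1% of all genes. Chchd2 (2.51 ± 0.31, adjusted p = 1.81e-05), Higd1a (2.55 ± 0.34, adjusted p = 4.37e-05) and the outer membrane channel Vdac1 (2.87 ± 0.43, adjusted p = 0.000126) were higher. Of 10 redox enzymes, a list that is not confined to mitochondria, 4 were called higher (40%, against 14.8% of all genes) and 0 lower in recovered than in pre-leukemic samples. They included the glutathione peroxidases Gpx1 (1.13 ± 0.20, adjusted p = 0.000553) and Gpx4 (0.85 ± 0.21, adjusted p = 0.00489) and catalase, a mainly peroxisomal enzyme, Cat (1.63 ± 0.34, adjusted p = 0.00165). In pre-leukemic against healthy samples, 1 assembly factor was called higher and 1 lower (2.44% each), 2 regulators of biogenesis higher and 2 lower, 2 carriers higher and 3 lower, 1 gene of the tricarboxylic acid cycle, Mdh2, higher (1.76 ± 0.43, adjusted p = 0.00706), and 1 redox enzyme, Gpx1, lower (-1.03 ± 0.26, adjusted p = 0.00833). In recovered against healthy samples, 1 assembly factor was called higher and 3 lower, Chchd2 (1.69 ± 0.41, adjusted p = 0.0442) and Higd1a (1.85 ± 0.46, adjusted p = 0.0497) among the carriers higher, and Idh3g lower (-2.19 ± 0.47, adjusted p = 0.0255).

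Of the 7 matching symbols not kept, Cox8b, Cox8c, Cox7b2 and Atp5l-ps1 were listed at 0 in all 13 libraries, and mt-Nd4l reached 1 FPKM in a single library. The pseudogenes Atp5l-ps2 and Atp5l2-ps reached 1 FPKM in 2 libraries each and were the symbols just outside the limit. Atp5l-ps2 had 2.19 FPKM in recovered 1 and 1.37 in pre-leukemic 2, and Atp5l2-ps had 1.39 FPKM in pre-leukemic 2 and 6.37 in pre-leukemic 3. Just inside were Cox7a1, with values given above that reached 1 FPKM in 3 libraries, and then Cox4i2 and Cox6a2.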

How the data were processed

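Values are FPKM per gene and library as the authors deposited them for 13 libraries. Per the submitters' processing notes, the tools were Cufflinks 2.2.1, Cuffnorm, TopHat and bcl2fastq, on genome build mm10. For the library-size method and the use of strand in counting, no statement is given in the sources used here. FPKM divides by transcript length and library size, so the immunoglobulin share of a library can move every other gene where that size is a total. The deposited FPKM summed to 601969 in healthy 3 and to 2986391 in pre-leukemic 4, so the libraries did not share a common sum. Median-ratio factors were 0.9726 in recovered 4 to 1.04 in healthy 3, so that scaling nearly repeats the deposited values. The TPM scale had factors of 0.3349 in pre-leukemic 4 to 1.661 in healthy 3. The genes and all lists were chosen with earlier results of these data known.

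The expression filter (1 FPKM or more, 3 libraries or more) kept 13118 genes. log2(FPKM + 1) was fitted with limma 3.58.1 (lmFit, then eBayes with trend; R 4.3.3), with 3 groups, no covariate, 12 samples and 9 residual degrees of freedom, and calls were made at a Benjamini-Hochberg adjusted p under 0.05. Healthy 1 and healthy 3 were averaged. The script was tested on simulated data with known changes. Alternatives were quantile normalization, a TPM scale, sums without immunoglobulin genes, sums without immunoglobulin and mitochondrial genes (added after seeing the data), median-ratio scaling, a pseudocount of 0.1, fits without the filter or with a mean FPKM of 5 or more, robust eBayes, arrayWeights, a fit of only the groups compared, unmerged healthy libraries, a replicate block and each library left out. Tables and figures were made with Python 3.11.15, pandas 2.3.3, numpy 2.4.6, scipy 1.17.1 and matplotlib 3.10.9. Depth and floors were estimated from the steps between low values and cover counting error only. Named genes were every mitochondrial gene; per complex the 2 nuclear genes of highest FPKM over the 3 group means and, per comparison, the 3 called genes of smallest p; isoform pairs; up to 10 genes called in opposite directions; genes next to the expression limit; and up to 3 called genes per further list and comparison. Ndufs1, Ndufs8, Ndufa9, Ndufa10, Ndufs5, Ndufa3, Ndufb3, Atp5d, Atp5e, Atp5o, Atp5sl, Cox6c and Cox7c were named from short lists of calls after their values were seen. Levels were compared between genes only as FPKM, which is per length.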

Additional observations from a re-analysis of the deposited data

Results flagged for a closer look

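In each group of 4 or 6 libraries, a library was singled out when its gap to the nearest other, over the range of the group, passed Dixon's 95% limit. This happened in 9 of 96 groups. About 1 in 20 would pass among independent normal values, which these are not, so the count was not read against that rate. For Cox6a2, Cox4i2 and Cox7a1 a single library lay above 0, which always passes. The share and the ratio flagged in pre-leukemic 1 are one quantity in 2 forms. mt-Nd5 was at 424 FPKM in recovered 3 and at 123 to 162 in the other recovered libraries. mt-Nd6 was at 569 FPKM in the same library and at 179 to 239 in the others. Ndufs3 was at 121 FPKM in recovered 2 and at 38.5 to 45.1 in the others. Uqcrh was at 243 FPKM in pre-leukemic 6 and at 402 to 424 in the other pre-leukemic libraries. Cox6a2 was at 2.24 FPKM in recovered 3 and listed at 0 in the others. Cox4i2 was at 0.544 FPKM in recovered 4 and listed at 0 in the others. Cox7a1 was at 1.02 FPKM in pre-leukemic 2 and listed at 0 in the other pre-leukemic libraries. The mitochondrial share of the chain's FPKM was 75.5% in pre-leukemic 1 and 78.5 to 79.8% in the others, and mitochondrial over nuclear FPKM was 3.09 there and 3.66 to 3.94 in the others.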

How the results depend on the processing

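Calls and directions in pre-leukemic against healthy and in recovered against pre-leukemic samples depended most on the scaling, and depth limits low genes most in recovered libraries, where 3 reads on 1 kb are worth up to 1.92 FPKM. The cause of the changes below was not tested. Shares of all genes called are given above for most scalings. For the other settings, and with 1 library left out, they are not given here. A change in those counts may thus be a change over all genes. Counts of calls are given as nuclear or mitochondrial genes, higher then lower, beside 5 and 4 nuclear and 11 and 0 mitochondrial genes in pre-leukemic against healthy samples. There, quantile normalization gave 4 and 5 mitochondrial genes, and the TPM scale 1 and 46 nuclear and 1 and 4 mitochondrial genes. Leaving immunoglobulin and mitochondrial genes out of the sum gave 9 nuclear genes higher, where 17% of all genes were. A fit of only the groups compared gave 14 and 12, arrayWeights 11 and 9, and unmerged healthy libraries 10 nuclear genes lower. With 1 library left out, 1 to 7 nuclear genes were higher, 2 to 7 lower, and 4 to 11 mitochondrial genes higher. In recovered against pre-leukemic samples, beside 27 and 13 nuclear and 1 and 8 mitochondrial genes, quantile normalization gave 5 and 4 mitochondrial genes, the TPM scale 58 and 1 nuclear and 6 and 0 mitochondrial genes, and arrayWeights 8 nuclear genes lower and 0 mitochondrial genes higher. With 1 library left out, 23 to 32 nuclear genes were higher, 10 to 13 lower, and 6 to 9 mitochondrial genes lower. In recovered against healthy samples, beside 2 and 0 nuclear genes, quantile normalization, the TPM scale, arrayWeights and a fit of only the groups compared gave 0 higher, no filter and a mean of at least 5 FPKM 1 each, and unmerged healthy libraries 8 and 1. With 1 library left out, 0 to 7 nuclear genes were higher, 0 to 1 lower, and 0 to 1 mitochondrial genes higher. When the healthy group kept 1 sample, that sample was assumed to vary like the others.

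Replicate numbers did not pair the libraries: deviations of same-numbered libraries from their group means correlated between -0.019 and 0.034. With the replicate block, 8 nuclear genes were lower in recovered than in pre-leukemic samples and 1 was higher in recovered than in healthy samples. In recovered against pre-leukemic samples the block took 5 lower nuclear calls (Atp5d, Ndufa9, Ndufa10, Ndufs3 and Uqcrfs1, adjusted p = 0.0729 to 0.123), 4 higher ones (Atp5e, Atp5o, Ndufa3 and Ndufb3, adjusted p = 0.091 to 0.172), which left 23, and that of mt-Atp6 (0.0979). It also took those of Ndufa4 for pre-leukemic (0.0798) and Atp5h for recovered (0.0731) against healthy samples.

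Some log2 changes turned round. In pre-leukemic against healthy samples quantile normalization gave mt-Co1 -1.06, mt-Co2 -1.09, mt-Co3 -1.52, mt-Cytb -0.91 and mt-Nd1 -0.68, and the TPM scale gave Atp5f1 -0.007, Atp5g3 -1.42, Ndufa1 -1.28, Ndufa4 -0.87, Ndufs3 -0.29, Uqcrfs1 -0.12, mt-Atp6 -0.84, mt-Co1 -0.58, mt-Co2 -1.13, mt-Co3 -0.90, mt-Cytb -1.09, mt-Nd1 -0.99, mt-Nd2 -0.96 and mt-Nd4 -0.87. In recovered against pre-leukemic samples quantile normalization gave mt-Co1 0.41, mt-Co2 1.36, mt-Co3 1.04, mt-Cytb 0.77 and mt-Nd1 0.53, and the TPM scale gave Atp5g3 1.34, Ndufa1 1.21, Ndufa4 1.41, Ndufs3 0.44, Sdhb 0.002, Uqcrfs1 0.34, mt-Atp6 0.96, mt-Co1 0.095, mt-Co2 1.38, mt-Co3 0.69, mt-Cytb 1.03, mt-Nd1 1.14, mt-Nd2 1.19, mt-Nd4 0.81 and mt-Nd5 0.28. Apart from these and the counts of calls given above, 3868 comparisons with a setting stayed the same. They cover named genes, both rRNA genes, median changes and counts of calls over all genes. In 79 the call of a gene was lost, and in 84 one was gained. In 55 a median or a count over all genes moved beyond the limit set for it.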
